A study of Mus musculus with 8 samples.

Results

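The maturation of thymic dendritic cells sorted as negative for Sirpa was measured as the difference between 2 groups of arrays, Sirpa_Neg_Mature (arrays 2 and 8 by the numbers in their titles) and Sirpa_Neg_Immature (arrays 4 and 7). The members were chosen by these titles alone, and they were 4 of the 8 arrays of the series. The other 4 held Sirpa-positive cells, mature (arrays 1 and 6) or immature (arrays 3 and 5). All cells were dendritic cells from mouse thymus, whose RNA was column-purified, linearly amplified from a low input, labelled with Cy3 and hybridised to 1-colour Agilent arrays on 1 slide. The labels name Sirpa and the maturation status as the basis of the sort. They give no strain, age, number of mice, treatment or further sort marker, and they do not state that a group's arrays hold cells of different mice. The p-values therefore rest on the spread between these arrays, which may be technical only.

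Sirpa is an inhibitory receptor of myeloid cells, and in mouse thymus the conventional dendritic cells that lack it belong mostly to the type 1 lineage, which depends on the transcription factors Batf3 and Irf8, carries the chemokine receptor Xcr1 and is known for cross-presentation. A maturing dendritic cell lowers its uptake of material, stops dividing, raises Ccr7 (the chemokine receptor that directs migration) and the receptors and ligands with which it addresses T cells, and displays the antigens it holds. In the thymic medulla this display serves the deletion of self-reactive thymocytes and the selection of regulatory T cells, and it needs no infection.

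Levels are log2 processed signals relative to the array's 75th percentile, so that 0 is the signal of that percentile, and in each pair of values below immature array 4 comes before 7 and mature array 2 before 8. Levels of different genes come from different probes and were not compared. Differences are mature minus immature, on the log2 scale, n = 2 arrays a group, with the moderated standard error (SE) of limma. That SE draws on the spread within groups over all 8 arrays and on the other genes, not on these 4 arrays alone. Adjusted p-values are those of limma with Benjamini-Hochberg adjustment over 24145 genes. A gene rose or fell here only where its adjusted p was under 0.05. Where a gene was not above background on either array of its lower group, its fold is a lower bound, written "at least".

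Sirpa itself rose from -2.24 and -2.19 to -0.52 and -0.9 (1.51 ± 0.22, adjusted p = 0.00555), and lay between 3.95 and 4.68 on the Sirpa-positive arrays, above all 4. Dendritic cell markers were present in both states. None of the 8 conventional dendritic cell markers, among them Flt3, Zbtb46, Itgax and H2-Ab1, passed the test, and their median difference was -0.17. Batf3 stayed at 3.59 and 3.39 on the immature arrays and 3.69 and 3.49 on the mature arrays, groups that overlapped. Irf8 lay at 7.6 and 7.53 in immature and 6.79 and 6.86 in mature cells, groups that did not overlap, but was not past the threshold (-0.74 ± 0.25, adjusted p = 0.0859). The list of type 1 markers was nevertheless lower in mature cells: 10 of 19 tested markers fell, none rose and the median difference was -1.11, with the summed level (in units of each array's 75th percentile) at 681 and 692 on the immature and 357 and 385 on the mature arrays. Xcr1 fell from 2.27 and 2.23 to 0.88 and 0.87, and Gcsam, a signalling adaptor, from 1.58 and 1.47 to -0.45 and -0.62 (-2.06 ± 0.26, adjusted p = 0.00288). Of 17 type 2 markers 4 rose and 6 fell, with summed levels of 1680 and 1780 against 1660 and 1460. The calcium-binding protein S100a4 rose from 2.02 and 0.87 to 5.2 and 4.83 and the lectin Cd209d fell from 2.08 and 1.97 to -0.41 and -0.17. Clec9a, a receptor for dead cells, was at 2.65 and 3.35 in immature and at 1.93 and 2.38 in mature cells and did not pass (adjusted p = 0.11). For the maturation labels, Ccr7 lay at 1.14 and -0.7 on the immature arrays and 6.2 and 5.62 on the mature arrays. Cd40, the receptor through which T cells signal to dendritic cells, lay at 2.54 and 2.47 in immature and 5.97 and 5.11 in mature cells, and in both genes the states were apart.

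Markers of thymocytes moved with maturation in these libraries. Of 26 tested thymocyte and T cell markers 18 rose and 1 (Cd6, at 0.03 when its probes were averaged) fell, the median difference was 1.44, and their summed level went from 26.2 and 29.3 on the immature arrays to 73.8 and 70.4 on the mature arrays. Each of the 26 was above background on at least 1 array of its lower state, and Rag1, Rag2, Themis and Trat1 were above it on 1 of 2 immature arrays. Rag1, a recombinase of developing lymphocytes, rose from -3.67 and -3.39 to -1.62 and -1.2, and Cd3e, a chain of the T cell receptor complex, rose by 1.17. Tcf7 and Il7r, discussed below, are also expressed by thymocytes, and the part of such RNA in any result was not tested. Of 15 macrophage and monocyte markers 3 rose and 1 fell, 26.7% against 21% of all genes with a symbol. Their summed levels were 4.97 and 3.77 on the immature arrays and 15.6 and 10.5 on the mature arrays. Mrc1, Cd163 and C1qc were not above background on any of the 4 arrays. A summed level weighs its brightest members most. Tcf7, which rose by 3.63, counts in the thymocyte sum and Axl, which rose by 4.9, in the macrophage sum. Among 12 plasmacytoid markers 2 rose and 3 fell. In bulk RNA of this kind, more or fewer cells of a type and more or less RNA per cell cannot be told apart.

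The arrays within a group were alike but not interchangeable. Pearson's r across genes was 0.98 between the immature arrays, 0.979 between the mature arrays and 0.933 to 0.949 between states. Spots well above background made up 61.9% and 63.8% of the arrays in slide row 1 (immature 7 and mature 2). In row 2 (immature 4 and mature 8) they made up 52.9% and 55.6%, so that detection went with the row. The Sirpa-positive arrays had 65.1% and 65.5% in row 1 and 57.9% and 53.2% in row 2. No spot was saturated, and the 75th percentile of the signal ranged from 199 to 253. Among genes that rose, mature array 2 was above mature array 8 in 68.7% and immature array 4 above immature array 7 in 59%, against 48.2% and 48% of genes that did not pass. Of the 133 rises with a measured difference of 4 or more (log2), these shares were 85.7% and 87.2%. Array 4 thus lay nearer to the mature state and array 8 nearer to the immature state in most of the leading risers, and the median rise was 1.75 in slide row 1 (mature 2, immature 7) and 1.51 in row 2. Row and array cannot be told apart here.

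Maturation changed genes in both directions, and the largest changes were rises. Of 24145 genes tested 2226 rose and 1749 fell, which is 16.5% in either direction, 9.22% rises and 7.24% falls; among the 13865 genes with a symbol 21% passed. The median difference over all genes was -0.01, and the measured log2 difference was at least 1 in 1934 rises and 1291 falls, at least 2 in 812 and 134, and at least 4 in 133 and 5. Of those 133 rises 54 were above background on neither immature array, so their measured difference is not a fold. The balance turned with the settings: 1803 rose and 1982 fell with median scaling, 2257 and 2323 with normexp and quantile normalization, and 1858 and 2037 among genes above background on all 8 arrays. In 3970 of the 3975 genes that passed the groups did not overlap, as in 13754 of all 24145. Rises made up 71.6% of the passing genes among the genes of lowest mean level (the lowest of 4 equal bins) and 47.9% and 52.1% in the upper bins, and the share passing was 12.8% in the lowest bin and 20.3% in the third. The count depended on single libraries, being 2033 without immature 4, 2297 without immature 7, 1790 without mature 2 and 3033 without mature 8, and it was 2043 in a fit of these 4 arrays alone, 2947 with slide row as a block and 1615 with no filter on dim probes. Counts over lists moved likewise: of 80 lists and families with 5 or more genes passing, 46 had a count over 1.5 times lower without immature 4, 54 without immature 7, 61 without mature 2 and 15 without mature 8.

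**Figure D1:**
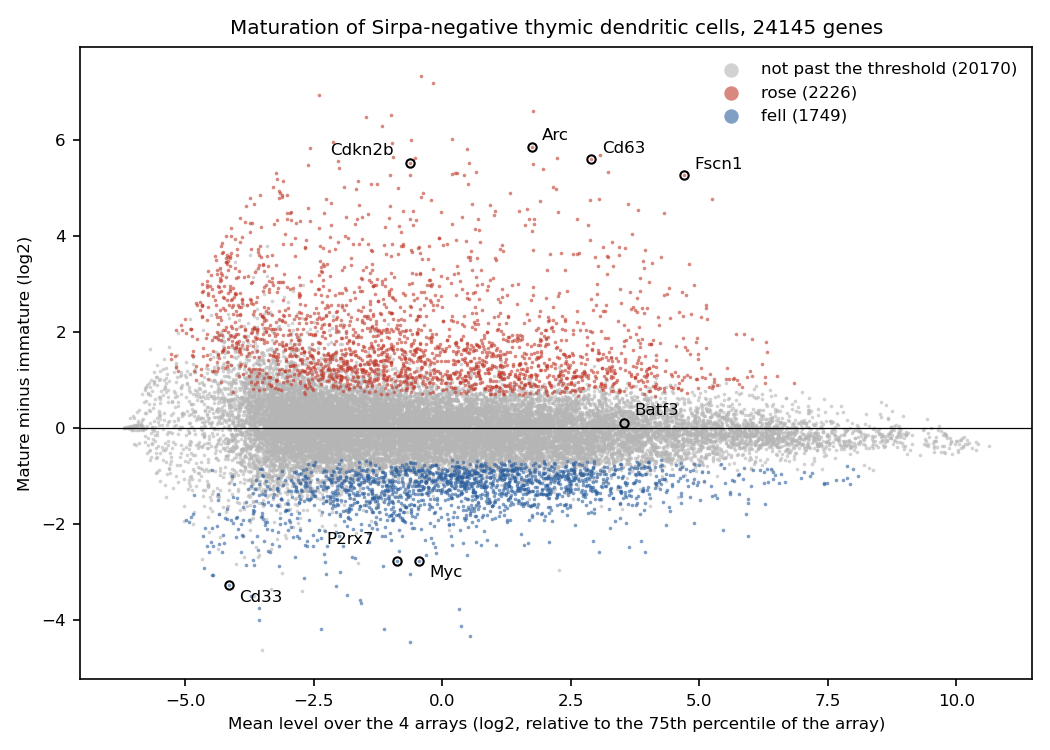
Difference between mature and immature Sirpa-negative cells (vertical axis, log2) against the mean level over the 4 arrays (horizontal axis, log2 relative to the array's 75th percentile), 1 point for each of 24145 genes; red points rose, blue points fell and grey points did not pass the limma test. The rises reach further from 0 than the falls: the measured difference was 4 or more in 133 rises and 5 falls, while Batf3 lies near 0.

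Below the leading risers, ranks 9 to 20 by difference held genes of several kinds. Arc, an early-response gene that shapes synapses and dendritic cell migration, went from -0.25 and -2.14 to 4.72 and 4.64 (58.5-fold, adjusted p = 0.00095). Itgb8, the integrin chain that activates latent TGF-beta, rose at least 18.9-fold from a level not above background (-4.38 and -6.6 on the immature arrays and 0.37 and 0.35 on the mature arrays), and Cd70, the ligand of Cd27, rose from -3.92 and -3.65 to 2.16 and 1.58 (5.66 ± 0.29, adjusted p = 0.000331), having been above background on 1 of 2 immature arrays. Cd63, a tetraspanin of late endosomes, was at 0.88 and -0.7 on the immature arrays and 6.08 and 5.33 on the mature arrays. Only genes that passed and whose groups did not overlap were ranked, so the states were apart by selection. In Arc and Cd63 array 7 lay more than 1 below array 4.

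Scin, an actin-severing protein, rose at least 24.4-fold and Arhgap8, a GTPase activator, at least 24.2-fold. Cdkn2b, an inhibitor of the G1 cyclin-dependent kinases, rose from -3.11 and -3.69 to 2.3 and 1.97 (5.53 ± 0.29, adjusted p = 0.000331), and Socs2, a feedback inhibitor of cytokine receptors, from 0.02 and -2.0 to 4.84 and 4.23. The remaining ranks were Spata31d1b (56.8-fold), Nudt17 (49.4-fold), Crispld2 (46.2-fold) and Ccr7.

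The falls of ranks 9 to 20 were smaller and held receptors and regulators of the immature state. Cd33, an inhibitory sialic acid receptor, fell from -2.32 and -2.71 to a level not above background, at least 2.54-fold (adjusted p = 0.00079). The C-type lectin Cd209e fell from 1.03 and 0.74 to -2.12 and -2.16, and P2rx7, the ATP-gated channel that starts inflammasome activation, from 0.76 and 0.25 to -2.23 and -2.3 (-2.77 ± 0.37, adjusted p = 0.00373). The proto-oncogene Myc, a driver of growth, fell from 0.94 and 0.9 to -2.28 and -1.39 (-2.76 ± 0.36, adjusted p = 0.00346), and Ccr2, a receptor for monocyte chemokines, from -0.97 and -0.8 to -3.54 and -3.81, where it was above background on 1 of 2 arrays. As with the rises, only genes whose groups did not overlap were ranked, so the states were apart by selection. The others were Klk1b27, Gzmc, Cyp8b1, Vmn1r48 and Fam117a, of which the kallikrein Klk1b27 shares sequence with its paralogs, so that its probe cannot be assigned with certainty.

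Many members of the NF-kB pathway rose. NF-kB dimers are held in the cytosol by inhibitors of the IkB family, which are themselves target genes, and the noncanonical branch runs from Cd40 through Traf3, the kinase Map3k14 and Nfkb2 to Relb. Of 16 tested inhibitors and feedback genes 11 rose, none fell and the median difference was 1.28. Tnip3, a partner of the ubiquitin editor Tnfaip3, rose from -0.26 and -0.91 to 2.42 and 2.68 (3.13 ± 0.32, adjusted p = 0.00147). Tnfaip3 rose from 1.2 and 1.4 to 3.78 and 2.94 (2.06 ± 0.34, adjusted p = 0.008), Bcl3, a nuclear IkB protein, from 0.23 and 0.15 to 2.47 and 1.85 (1.97 ± 0.25, adjusted p = 0.00324), and Tnip1 from 3.01 and 3.19 to 4.72 and 4.34. The classical inhibitors Nfkbia, Nfkbib, Nfkbie and Nfkbid rose by 1.45, 1.26, 1.5 and 1.32, and Nfkbiz by 0.8. The deubiquitinases Cyld (0.27 ± 0.21, adjusted p = 0.439) and Otulin (0.11 ± 0.2, adjusted p = 0.755) did not pass.

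The promoters of the inhibitors are shown because these genes moved together and are known targets of the pathway. Each line gives the 250 bases before the start site in RefSeq's table for GRCm38.p6, 5′ to 3′ on the gene's strand, with matches to the kB motif in capitals: Nfkbia on the minus strand at chr12:55492648-55492897, Nfkbie on the plus strand at chr17:45555450-45555699, and Tnip3 on the plus strand at chr6:65590148-65590397.
Nfkbia: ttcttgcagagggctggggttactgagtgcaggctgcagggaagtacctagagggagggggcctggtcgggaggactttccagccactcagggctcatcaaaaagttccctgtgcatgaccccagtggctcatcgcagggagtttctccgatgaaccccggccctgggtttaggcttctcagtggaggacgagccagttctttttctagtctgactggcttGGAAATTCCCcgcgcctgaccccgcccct
Nfkbie: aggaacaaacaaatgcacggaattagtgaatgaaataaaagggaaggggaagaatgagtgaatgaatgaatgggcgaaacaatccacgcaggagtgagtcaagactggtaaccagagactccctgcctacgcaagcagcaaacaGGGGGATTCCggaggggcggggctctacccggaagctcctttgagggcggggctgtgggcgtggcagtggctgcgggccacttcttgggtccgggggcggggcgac
Tnip3: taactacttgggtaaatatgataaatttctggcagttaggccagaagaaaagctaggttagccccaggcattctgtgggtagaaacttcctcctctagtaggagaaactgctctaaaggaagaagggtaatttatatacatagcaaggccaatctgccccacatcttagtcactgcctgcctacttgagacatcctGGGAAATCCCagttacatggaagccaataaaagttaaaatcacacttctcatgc
The matched letters lie 29 to 20 bases before the start of Nfkbia, on the opposite strand, 106 to 97 before that of Nfkbie and 54 to 45 before that of Tnip3, where both strands match. The motif, searched on both strands, was found in 7 of the 15 promoters of this list that the table held (46.7%), in 9.38% of 1226 genes that rose, in 4.32% of 1089 that fell, in 5.06% of 8768 that did not pass and in 4.46% of all 27025 promoters. A match describes letters, not binding.

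Of 18 subunits and kinases of the pathway 8 rose, 1 fell and the median was 0.72. Relb rose from 1.8 and 1.38 to 4.82 and 4.79 (3.21 ± 0.22, adjusted p = 0.000513), Nfkb2 from 4.29 and 4.12 to 5.73 and 5.77 (1.54 ± 0.22, adjusted p = 0.00484) and Rela from 3.04 and 3.08 to 4.63 and 4.07 (1.29 ± 0.25, adjusted p = 0.0142), each with the arrays of a state close together. Rel rose from -3.28 and -3.61, above background on 1 of 2 arrays, to -0.6 and -1.15. Nfkb1, the precursor of p50, was at 2.63 and 2.27 on the immature arrays and 2.28 and 2.49 on the mature arrays, groups that overlapped. The protease Malt1, which joins Bcl10 downstream of antigen and lectin receptors, rose from -2.05 and -1.26 to 1.16 and 0.24, the kinases Ikbkb and Map3k14 rose by 1.52 and 1.01, and Tab1, an activator of Map3k7, fell by 0.78. Among 20 TRAF and death-domain adaptors 8 rose and none fell (median 0.43). Traf1 went from 3.91 and 3.81 to 6.36 and 6.49 (2.56 ± 0.24, adjusted p = 0.00113), Birc2, a ubiquitin ligase of the TRAF complexes, from -0.7 and -0.95 to 2.2 and 2.13 (2.99 ± 0.2, adjusted p = 0.000513), and Tank, a TRAF-binding scaffold, from 0.72 and 0.37 to 3.15 and 2.48. The Toll-like receptor adaptors Myd88 (-0.67), Irak4 (-0.38), Irak1 (-0.16) and Ticam1 (-0.02) did not pass.

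**Figure D2:**
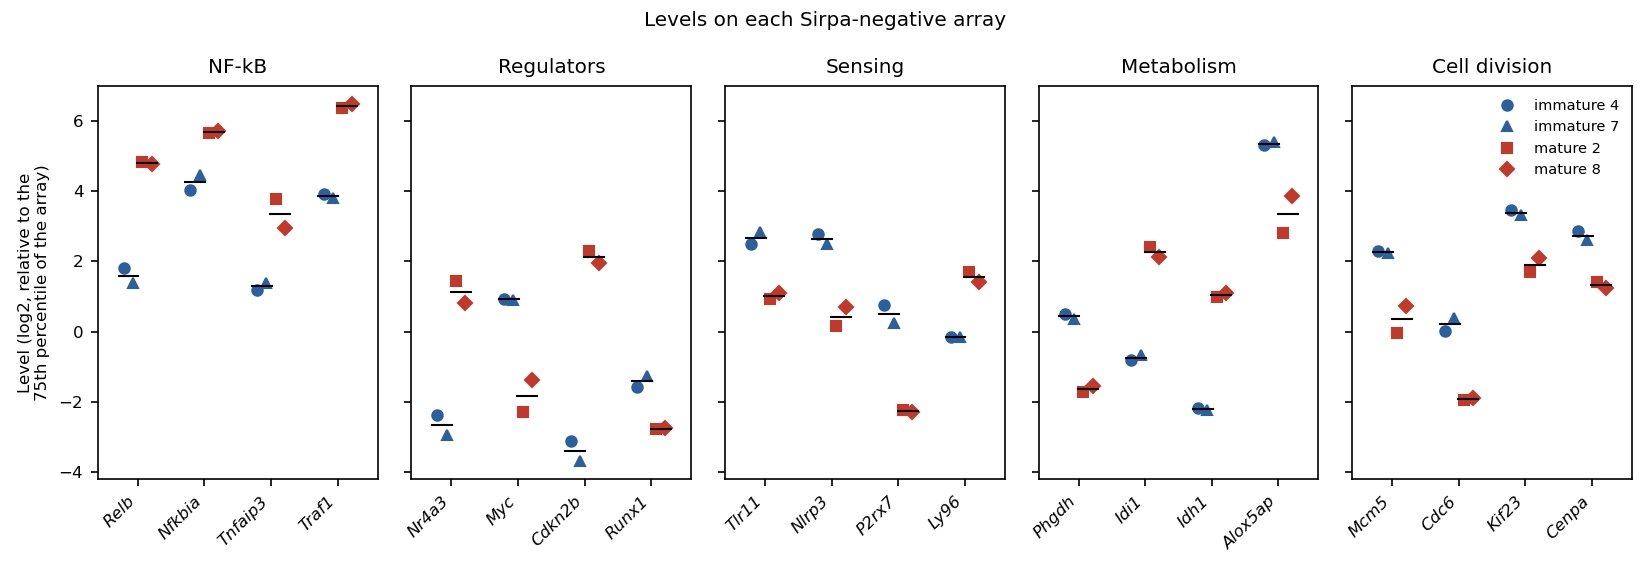
Levels of 20 genes on each Sirpa-negative array (vertical axis, log2 relative to the array's 75th percentile), blue for immature arrays 4 and 7 and red for mature arrays 2 and 8, with a black line at each state's mean. Every gene drawn had passed the test, so that the states lie apart was given by this choice. The groups did not overlap in 3970 of 3975 genes that passed and in 13754 of all 24145. Myc, Tlr11 and the division genes are lower in mature cells, and Relb, Traf1, Nr4a3 and Cdkn2b higher.

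Some inducible transcription factors rose. Of 37 dendritic cell transcription factors 10 rose, 4 fell and 23 did not pass. Nr4a3, an orphan nuclear receptor needed for dendritic cell migration, rose from -2.37 and -2.95 to 1.44 and 0.83 (3.8 ± 0.32, adjusted p = 0.000795), and Irf1 from 2.4 and 2.04 to 5.33 and 4.81 (2.85 ± 0.25, adjusted p = 0.000882). Spib rose by 2.23, Nfil3 by 1.82, Hivep1 by 1.68 and Klf6 by 1.44. Bcl11a, a factor of dendritic cell progenitors, fell from -1.38 and -1.55 to -3.25 and -4.35 (-2.34 ± 0.35, adjusted p = 0.00556), above background on 1 of 2 mature arrays, Runx1 from -1.57 and -1.25 to -2.77 and -2.75 (-1.35 ± 0.27, adjusted p = 0.0158) and Cebpb from -0.66 and -0.33 to -1.39 and -1.96. Spi1 (-0.29), Ikzf1 (-0.44), Id2 (0.01) and Runx3 (-0.02) did not pass.

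Early-response genes split. Of 33 such genes and dual-specificity phosphatases 9 rose and 7 fell. Dusp5, a nuclear phosphatase of the kinase Erk, rose from -0.6 and -0.66 to 1.93 and 1.87 (2.53 ± 0.18, adjusted p = 0.000551), Zfp36l1, which promotes mRNA decay, by 2.79 and Crem, a cyclic AMP response factor, by 2.18. Zfp36l2, a paralog of Zfp36l1, fell from 2.13 and 2.1 to 0.24 and 0.38 (-1.8 ± 0.19, adjusted p = 0.00164), Egr1 from 2.96 and 2.97 to 1.33 and 1.85, and Fos and Nr4a1 by 1.15 and 1.02. Among 54 histone and DNA modifying enzymes 6 rose and 7 fell, 24.1% against 21%. Hdac11 rose from -2.51 and -2.85 to 0.47 and 0.41 (3.12 ± 0.23, adjusted p = 0.000547) and the demethylase Kdm5b by 1.77, while the DNA methyltransferase Dnmt3b fell by 1.28.

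Of 24 STAT, JAK and SOCS genes 9 rose and 1 (Ptpn11) fell, with a median of 0.72; Stat5a, which carries signals of growth cytokines, went from 0.09 and -0.35 to 2.14 and 1.61 (2.01 ± 0.26, adjusted p = 0.00305), Pias3 rose by 2.28 and Stat6, Jak2 and Jak3 by 0.82, 0.96 and 0.88. Stat2 (-0.08) and Socs3 (0.58), which interferon or inflammatory cytokines are known to induce, did not pass. Of 37 interferon-induced antiviral genes 10 rose, none fell and the median was 0.34. The share that passed was 27.0%, against 21% of all genes with a symbol. Ifit1, which binds viral RNA caps, rose from -2.73 and -2.68 to 0.12 and -0.33 (2.59 ± 0.23, adjusted p = 0.000935), Rsad2 from 1.95 and 1.88 to 3.5 and 3.35 (1.51 ± 0.19, adjusted p = 0.00281) and the receptor chaperone Rtp4 from -0.31 and -0.58 to 2.17 and 1.46 (2.25 ± 0.28, adjusted p = 0.00288). Oasl1, Oasl2 and Isg15 rose by 1.91, 2.34 and 0.89. Irf7, the factor that amplifies interferon genes, was at 5.89 and 5.55 on the immature arrays and 5.24 and 5.51 on the mature arrays, slightly lower in mature cells and not past the threshold (adjusted p = 0.352), and Cxcl10 (0.14) and Ifi44 (-0.29) did not pass either.

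The GTPases of cell-autonomous defence also rose. Of 17 guanylate-binding and immunity-related GTPases 10 rose, none fell and the median was 1.22. Gbp2 went from -1.8 and -2.61 to 3.59 and 2.53 (5.27 ± 0.4, adjusted p = 0.000636), Gbp5 from -2.32 and -3.32 to 2.26 and 1.14 (4.52 ± 0.5, adjusted p = 0.00182) and Gbp4 from -3.34 and -3.62, above background on 1 of 2 arrays, to 0.2 and -0.35 (3.4 ± 0.29, adjusted p = 0.000839). Paralogs of this family are near-identical in places, so single probes may read more than 1 of them. The promoters of Ifit1 and Gbp2, both on the plus strand (chr19:34640639-34640888 and chr3:142620413-142620662), are shown for their matches to the core of the interferon response element, TTCNNTTTC, in capitals.
Ifit1: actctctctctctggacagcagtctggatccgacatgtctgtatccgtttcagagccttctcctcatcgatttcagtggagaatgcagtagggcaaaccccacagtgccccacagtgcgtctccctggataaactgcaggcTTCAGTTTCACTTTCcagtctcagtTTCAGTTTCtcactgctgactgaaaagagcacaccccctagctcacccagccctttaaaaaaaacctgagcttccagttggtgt
Gbp2: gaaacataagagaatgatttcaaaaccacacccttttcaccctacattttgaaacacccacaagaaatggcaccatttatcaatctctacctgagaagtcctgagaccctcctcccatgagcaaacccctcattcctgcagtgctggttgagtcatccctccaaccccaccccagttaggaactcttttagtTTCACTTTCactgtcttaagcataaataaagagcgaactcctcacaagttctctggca
Ifit1 holds 3 matches, of which those at 109 to 101 and 103 to 95 bases before the start overlap, and Gbp2 holds 1 at 58 to 50. On both strands, 10 of the 11 GTPase promoters in the table held the core (90.9%) and 12 of 28 of the antiviral list (42.9%), against 9.3% of genes that rose, 7.36% of those that did not pass and 8.18% of all promoters.

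Sensors of microbes and uptake receptors changed in both directions. Of 29 pattern recognition genes 4 rose and 7 fell (median -0.35). Tlr11 and Tlr12, the endosomal pair that recognises profilin of parasites, fell from 2.5 and 2.85 to 0.94 and 1.11 (-1.64 ± 0.25, adjusted p = 0.00642) and from 4.0 and 4.5 to 2.61 and 3.11 (-1.39 ± 0.27, adjusted p = 0.0151), and Unc93b1, which carries endosomal Toll-like receptors out of the endoplasmic reticulum, by 1.14. Nlrp3, an inflammasome sensor, fell from 2.78 and 2.49 to 0.15 and 0.71 (-2.2 ± 0.26, adjusted p = 0.00235). Ly96, the partner of Tlr4, rose from -0.15 and -0.14 to 1.71 and 1.41 (1.7 ± 0.21, adjusted p = 0.00265), although Tlr4 itself was above background on none of the 4 arrays, and the RNA sensor Ddx58 rose from -0.43 and -0.16 to 1.53 and 1.19 (1.65 ± 0.21, adjusted p = 0.00332). Tlr7 (0.38), Tlr9 (-0.56) and Aim2 (-0.76) did not pass.

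Among 37 endocytic and scavenger receptors 3 rose and 4 fell, 18.9% against 21% of all genes with a symbol. Axl, a receptor for dying cells, rose from -2.54 and -3.11 to 2.4 and 1.77 (4.9 ± 0.29, adjusted p = 0.000363), Mfge8, the bridging protein for the same cargo, from 1.72 and 1.56 to 4.91 and 5.13 (3.38 ± 0.32, adjusted p = 0.00109) and Ly75 (DEC-205) from 0.73 and 0.87 to 2.35 and 2.4 (1.57 ± 0.21, adjusted p = 0.00356). Scarb1, which takes up lipoprotein cholesterol, fell from 1.36 and 1.37 to -0.58 and -0.43 (-1.87 ± 0.2, adjusted p = 0.00171), and the lectins Clec4b1 and Clec10a fell by 2.15 and 2.39. Of 28 Fc receptor and complement genes 5 rose and 6 fell. Fcgr2b and Fcgr3, receptors for IgG, fell from 1.17 and 0.47 to -1.31 and -1.7 and from 1.33 and 0.78 to -0.83 and -0.84 (-1.89 ± 0.25, adjusted p = 0.00377), the complement factor Cfp fell by 2.08, and Cfb, the factor of the alternative pathway, rose from -2.55 and -3.05 to -0.29 and -0.25 (2.53 ± 0.24, adjusted p = 0.00112).

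Of 42 inhibitory and activating myeloid receptors 5 rose and 8 fell, 31.0% against 21% of all genes with a symbol. Lair1, a collagen receptor, fell from -0.39 and -0.29 to -2.62 and -2.2 (-2.07 ± 0.24, adjusted p = 0.00229), Treml4 from 3.16 and 2.47 to 0.22 and 0.51 (-2.44 ± 0.31, adjusted p = 0.00313), and Siglecg, Vsir and Cd84 by 1.24, 1.18 and 0.82. Cd200, the ligand of an inhibitory receptor, rose from -1.88 and -2.2 to 2.43 and 1.41 (3.96 ± 0.34, adjusted p = 0.000858), and Slamf1 rose at least 5.91-fold from below background.

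Of 28 class I processing genes 4 rose and 1 fell, 17.9% against 21%. Nlrc5, the class I transactivator, rose from 2.45 and 2.46 to 4.27 and 3.6 (1.48 ± 0.27, adjusted p = 0.0119), Tapbpl and Tapbp, which edit the bound peptides, by 1.46 and 1.0, and B2m by 1.1. Tap1 (0.17), Tap2 (0.33), Psmb8 (-0.16) and H2-K1 (0.47) did not pass, while Wdfy4, which is required for cross-presentation, fell by 1.11 (adjusted p = 0.0488). Of 37 proteasome subunits 1 rose (Psmd4) and none fell, 2.7% against 21%.

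Of 27 class II processing genes 9 rose and 1 (H2-DMa) fell. The asparagine endopeptidase Lgmn rose from 0.46 and 0.34 to 4.0 and 3.38 (3.29 ± 0.26, adjusted p = 0.000646), H2-Eb2 from -1.1 and -1.54 to 2.15 and 1.69 (3.23 ± 0.29, adjusted p = 0.000919) and Cd83, which protects class II molecules from ubiquitination, from 3.67 and 3.03 to 6.31 and 5.94 (2.78 ± 0.27, adjusted p = 0.00125). The class II chains H2-Aa (-0.12) and H2-Ab1 (-0.15), the invariant chain Cd74 (-0.06), Ciita (-0.4) and the ubiquitin ligase Marchf1 (0.06), which marks class II for degradation in immature cells, did not pass. When its probes were averaged, Marchf1 did pass in limma, as a fall (-0.84, adjusted p = 0.0315). Of 17 cathepsins and cystatins 6 rose and none fell: Ctsh from 3.54 and 3.35 to 5.08 and 4.67 (1.43 ± 0.23, adjusted p = 0.00688), Ctsc by 1.09, Ctsb by 1.03, Ctsd by 1.01, and the protease inhibitor Csta2 at least 4.33-fold.

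Of 36 lysosomal and autophagy genes 6 rose, none fell and 27 were above 0 (median 0.34); the share that passed was 16.7% against 21% of all genes with a symbol. Lamp1, the main protein of lysosomal membranes, rose from 3.55 and 3.27 to 6.5 and 6.3 (2.99 ± 0.29, adjusted p = 0.00125), the autophagy receptor Sqstm1 from 5.12 and 5.06 to 7.06 and 6.87 (1.87 ± 0.21, adjusted p = 0.00191) and Optn, another such receptor, by 3.37, from above background on 1 of 2 immature arrays. Of 22 vacuolar proton pump genes 1 rose, the subunit Atp6v0a1 (2.74 ± 0.31, adjusted p = 0.00196), and its paralog Atp6v0a2 fell (-1.13 ± 0.2, adjusted p = 0.0106). Together they were 9.09% of this family, against 21% of all genes with a symbol. Among 61 Rab GTPases, the switches of vesicle traffic, 13 rose and 5 fell, 29.5% against 21%. Rab9, of traffic from endosome to Golgi, rose from 1.11 and 0.65 to 3.43 and 3.85 (2.76 ± 0.27, adjusted p = 0.00122) and Rab7b, of late endosomes, fell from 5.62 and 5.46 to 4.43 and 4.42 (-1.12 ± 0.23, adjusted p = 0.0195). Of 33 ubiquitin ligases of immune cells 8 rose and 1 fell, 27.3% against 21%. Cblb (2.07 ± 0.2, adjusted p = 0.00121) and Rnf115 (2.41 ± 0.25, adjusted p = 0.00143) were among the rises, and Asb2 fell (-2.25 ± 0.27, adjusted p = 0.00256).

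Cytoskeletal genes changed in both directions. Of 51 actin and dendrite-forming genes 15 rose and 5 fell. Fscn1 (fascin), which bundles actin in dendrites, rose from 2.75 and 1.37 to 7.26 and 7.41 (5.28 ± 0.43, adjusted p = 0.000755), the tubulin Tubb2b from 2.34 and 2.15 to 5.85 and 5.33 (3.35 ± 0.23, adjusted p = 0.000513), Anxa3 from 0.11 and -1.41 to 3.95 and 3.91 and Samsn1 by 4.24. Fscn1 and Anxa3 again had array 7 more than 1 below array 4. Was, the activator of branched actin missing in Wiskott-Aldrich syndrome, fell from 3.03 and 3.28 to 1.78 and 1.95 (-1.29 ± 0.21, adjusted p = 0.008), Evl by 1.6 and Coro1a by 0.91. The membrane myosins Myo1g and Myo1e rose, Myo1g from 2.96 and 2.94 to 4.97 and 4.64 (1.86 ± 0.2, adjusted p = 0.00169) and Myo1e by 1.77, within a family of 86 kinesins, dyneins and myosins in which 14 rose and 15 fell.

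Several adhesion molecules rose, and leukocyte integrin chains changed in both directions. Of 33 adhesion and junction genes 10 rose and 3 fell (median 0.31). Nectin2 rose from -0.96 and -1.85 to 1.94 and 2.01 (3.38 ± 0.29, adjusted p = 0.000862), its relative Pvr from -3.01 and -3.23 to 0.63 and -0.64 (3.12 ± 0.46, adjusted p = 0.00562) and Nectin3 at least 3.17-fold. These proteins bind receptors of T and natural killer cells. Nrp2, a receptor of semaphorins, rose from -0.45 and -1.04 to 3.01 and 2.97 (3.73 ± 0.3, adjusted p = 0.000712) and Cdh2, a cadherin, by 2.96. Of 19 integrins 2 rose and 3 fell, 26.3% against 21% of all genes with a symbol. Itgb7 went from 4.13 and 4.1 to 1.23 and 2.32 (-2.34 ± 0.41, adjusted p = 0.0104), and the LFA-1 chains Itgal and Itgb2 fell by 1.29 and 1.2. Of 43 semaphorins, plexins, ephrins and Eph receptors 9 rose and 2 fell, 25.6% against 21%. Efnb2 rose from -3.8 and -4.0, above background on 1 of 2 arrays, to 0.46 and -0.26 (4.0 ± 0.33, adjusted p = 0.000755) and Plxnc1 from 1.42 and 1.07 to 3.58 and 3.46 (2.28 ± 0.2, adjusted p = 0.000919).

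Chemokine receptors changed in both directions. Of 17 tested 6 rose and 6 fell, and the sign of their median, 0.22, turned under 4 other scalings, so no direction is given for the list. Besides Ccr7, Cxcr5, which answers the follicle chemokine, rose at least 4.4-fold and Ccr6 from -1.4 and -1.76 to -0.04 and -0.15 (1.48 ± 0.26, adjusted p = 0.0104). Cxcr3, of inflamed tissue, fell from 1.96 and 1.66 to -0.74 and -0.92 (-2.64 ± 0.35, adjusted p = 0.0038). Of 22 chemokine ligands 9 rose and 1 (Xcl1) fell (median 0.82). Ccl5 rose from 3.44 and 2.28 to 7.66 and 7.64 (4.79 ± 0.36, adjusted p = 0.000599), Ccl17, which attracts Ccr4-bearing T cells, from 2.66 and 1.47 to 6.54 and 6.58 (4.49 ± 0.38, adjusted p = 0.000795) and Cx3cl1 from -2.49 and -2.89 to 1.38 and 0.82 (3.79 ± 0.26, adjusted p = 0.000513). In Ccl5 and Ccl17 the mature arrays agreed within 0.1 and the immature arrays differed by more than 1.

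Interleukins and their receptors mostly rose where they changed: 19 of 49 rose and 2 fell (median 0.73). Il21r went from -1.64 and -1.89 to 3.31 and 2.52 (4.68 ± 0.33, adjusted p = 0.000547), Il4ra from 4.01 and 3.75 to 6.23 and 6.17 (2.32 ± 0.2, adjusted p = 0.00084) and the decoy receptor Il1r2 from -1.37 and -1.46 to 0.93 and 1.17 (2.46 ± 0.22, adjusted p = 0.000919). Il15, which sustains T and natural killer cells, rose from -0.91 and -1.01 to 1.6 and 1.01 (2.26 ± 0.31, adjusted p = 0.00393), Il7r from -2.12 and -1.46 to 1.76 and 0.85 and Il2ra, the high-affinity chain of the IL-2 receptor, at least 9.03-fold. Il16 and Il6ra fell by 1.9 and 1.4. Of 35 TNF superfamily ligands and receptors 15 rose and 7 fell (median 0.25). Tnfrsf4 (OX40) rose from -0.16 and -0.78 to 4.54 and 3.98 (4.73 ± 0.29, adjusted p = 0.000388) and Tnfrsf1b, a TNF receptor, from -1.38 and -2.27 to 2.05 and 1.98 (3.84 ± 0.3, adjusted p = 0.000638). The receptor Tnfrsf13b and the B cell survival factor Tnfsf13b fell by 1.5 and 1.59, and the nerve growth factor receptor Ngfr from 0.24 and 0.09 to -1.71 and -1.79.

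Developmental signalling genes held a few large single changes. Of 33 genes of the TGF-beta, activin and BMP pathways 6 rose and 2 fell, 24.2% against 21% of all genes with a symbol. Beside Itgb8, Tgfb2 rose at least 2.28-fold while Tgfb1 fell from 2.36 and 2.15 to 1.01 and 0.96 (-1.27 ± 0.2, adjusted p = 0.00749) and its receptor Tgfbr2 by 1.21. Of 26 Notch pathway genes 4 rose and 5 fell: the ligand Dll4 rose from -1.49 and -2.18 to -0.04 and -0.26 (1.69 ± 0.29, adjusted p = 0.00945), and the receptor Notch2 and the target Hes1 fell by 1.02 and 1.46. Of 28 Wnt pathway genes 4 rose and 2 fell, 21.4% against 21% of all genes with a symbol. Tcf7, a factor of the pathway that thymocytes express strongly, rose from 0.93 and 0.68 to 4.76 and 4.1 (3.63 ± 0.26, adjusted p = 0.000547), its relative Tcf7l1 rose at least 8.91-fold, and the receptors Fzd2 and Fzd7 fell by 2.12 and 1.99. Among 19 retinoid and vitamin D genes the retinaldehyde dehydrogenase Aldh1a3 rose at least 2.05-fold, and the receptor Rxra fell from 1.29 and 1.03 to -0.47 and -0.11 (-1.45 ± 0.22, adjusted p = 0.00588). Aldh1a2 passed the test but was above background on none of these 4 arrays, and no fold is given.

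Metabolic genes changed in both directions. In the list of 26 amino acid enzymes 5 rose and 7 fell. Among its members that fell, Phgdh, of serine synthesis, went from 0.51 and 0.37 to -1.72 and -1.54 (-2.07 ± 0.29, adjusted p = 0.00423), Psat1 from 2.34 and 2.41 to 0.74 and 0.87 (-1.57 ± 0.2, adjusted p = 0.00297), Psph from 0.64 and 0.79 to -0.48 and -0.73 (-1.33 ± 0.21, adjusted p = 0.00702) and Shmt2, which turns serine into glycine in mitochondria, from 3.24 and 3.4 to 1.19 and 1.84 (-1.8 ± 0.29, adjusted p = 0.00785). Srm, of spermidine synthesis, fell from 3.33 and 3.2 to 0.58 and 1.21 (-2.37 ± 0.29, adjusted p = 0.00273). Among those that rose, Il4i1, an amino acid oxidase, went from 2.57 and 1.61 to 5.87 and 5.73 (3.71 ± 0.31, adjusted p = 0.000812), Ido2, of tryptophan breakdown, rose at least 4.34-fold and the arginase Arg2 at least 8.64-fold.

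Of 38 cholesterol and oxysterol genes 10 rose and 1 (Dhcr7) fell (median 0.34), 28.9% against 21% of all genes with a symbol. Idi1, an isomerase of the mevalonate pathway, rose from -0.81 and -0.66 to 2.41 and 2.12 (3.01 ± 0.21, adjusted p = 0.000537), Hmgcs1 by 1.1 and Fdft1 by 1.21, while Srebf2 (-0.54) did not pass. The SREBP motif, searched as TCACNCCAC on both strands, was found in 1 of 27 promoters of this list (3.7%). It was in 1.31% of genes that rose and 1.19% of those that did not pass. Gpr183, the oxysterol receptor that positions dendritic cells, rose by 1.31 and the exporter Abcg1 by 1.69. Of 41 fatty acid genes 10 fell and 2 rose (median -0.35), 29.3% against 21%. Elovl6, an elongase, fell from -0.23 and -0.47 to -2.7 and -2.38 (-2.19 ± 0.23, adjusted p = 0.00145), the desaturases Scd2, Fads1 and Fads2 by 1.47, 1.12 and 1.28, and the carriers Fabp5 and Fabp4 rose from 1.93 and 1.34 to 5.56 and 4.93 (3.61 ± 0.31, adjusted p = 0.000858) and by 1.9.

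Energy metabolism lists had medians below 0, with paralogs that changed in opposite directions. Of 28 glycolysis and lactate genes 7 fell and 4 rose (median -0.54, with 6 above 0). The hexokinases Hk2 and Hk3 fell by 1.31 and 1.41 and Ldha from 7.0 and 7.14 to 6.09 and 6.14 (-0.95 ± 0.21, adjusted p = 0.0252), whereas Ldhb rose from -1.95 and -2.24 to -0.08 and -0.1 (2.0 ± 0.2, adjusted p = 0.00139), Eno2, the neuronal enolase, from -1.87 and -2.22 to 1.21 and 1.14 (3.22 ± 0.23, adjusted p = 0.000541) and Pfkfb3, an activator of glycolysis, from 3.23 and 2.68 to 6.06 and 5.72 (2.93 ± 0.25, adjusted p = 0.000839). Of 28 citric acid cycle genes 6 fell and 2 rose (median -0.43), 28.6% against 21% of all genes with a symbol. The mitochondrial Idh2 and Idh3a fell by 1.46 and 1.61, and the cytosolic Idh1 and Me1, which make NADPH, rose from -2.18 and -2.22 to 0.99 and 1.09 (3.24 ± 0.2, adjusted p = 0.000388) and at least 9.73-fold. Of 37 complex I genes 2 fell and none rose (median -0.40), 5.41% against 21% of all genes with a symbol, and of 17 ATP synthase genes none passed.

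Genes against oxidative and metal stress rose in 11 of 39 cases and fell in 4. The metallothioneins Mt2 and Mt1, which bind zinc and copper, rose from 0.14 and -0.86 to 4.71 and 4.64 (5.03 ± 0.33, adjusted p = 0.000483) and from 2.63 and 2.4 to 5.17 and 4.78 (2.46 ± 0.31, adjusted p = 0.0029), and Gclc, of glutathione synthesis, from 1.66 and 1.01 to 4.93 and 4.51 (3.38 ± 0.33, adjusted p = 0.00116). The iron-handling genes Slc11a1 and Tfrc fell by 2.04 and 1.68, and the haem oxygenase Hmox1 from 0.09 and 0.22 to -1.46 and -1.16 (-1.47 ± 0.21, adjusted p = 0.00522). Of 27 prostaglandin and leukotriene genes 5 rose and 6 fell. Alox5ap, the partner of the 5-lipoxygenase, fell from 5.32 and 5.39 to 2.81 and 3.87 (-2.02 ± 0.39, adjusted p = 0.0149), the leukotriene receptor Cysltr1 from -1.04 and -0.36 to -2.69 and -2.89 (-2.09 ± 0.26, adjusted p = 0.00281) and the thromboxane synthase Tbxas1 by 2.32. The prostaglandin receptor Ptger4, known to support dendritic cell migration, rose from -0.12 and -0.05 to 2.39 and 2.25 (2.4 ± 0.22, adjusted p = 0.00102), while Ptger2 fell by 2.23 and was above background on 1 of 2 mature arrays.

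Of 34 genes of the unfolded protein response and the chaperones of the endoplasmic reticulum 12 fell, none rose, 4 were above 0 and the median was -0.66; 7 fell without immature 4, 4 without immature 7 and 5 without mature 2. Pdia4, a disulfide isomerase, fell from 3.19 and 3.32 to 1.39 and 1.81 (-1.66 ± 0.22, adjusted p = 0.0037), the chaperone Hyou1 from 2.66 and 2.53 to 1.06 and 0.91 (-1.61 ± 0.22, adjusted p = 0.00413), Hsp90b1 from 4.66 and 4.86 to 3.4 and 3.63 (-1.24 ± 0.2, adjusted p = 0.00732) and Creld2 from 4.08 and 4.59 to 1.97 and 2.82. The central chaperone Hspa5 (BiP) was at 6.99 and 7.18 on the immature arrays and 6.46 and 6.35 on the mature arrays, lower on both mature arrays but not past the threshold (adjusted p = 0.11), and the regulators Xbp1 (-0.66), Atf4 (-0.35) and Ddit3 (0.51) did not pass. Of 26 cytosolic heat shock genes 3 rose and none fell, 11.5% against 21% of all genes with a symbol.

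The Hspa5 promoter, on the plus strand at chr2:34771840-34772089, is shown for the ER stress element, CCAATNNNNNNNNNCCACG, in capitals.
Hspa5: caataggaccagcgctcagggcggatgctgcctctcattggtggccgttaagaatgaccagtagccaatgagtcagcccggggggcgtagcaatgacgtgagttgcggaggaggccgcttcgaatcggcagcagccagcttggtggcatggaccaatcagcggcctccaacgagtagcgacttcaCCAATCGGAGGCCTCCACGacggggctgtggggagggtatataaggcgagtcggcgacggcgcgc
The element lies 65 to 47 bases before the start. On both strands it was found in 10 of 30 promoters of the list (33.3%), in 7 of 1089 genes that fell (0.643%), in 0 of 1226 that rose, in 0.137% of those that did not pass and in 0.13% of all promoters.

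Of 33 aminoacyl-tRNA synthetases 6 fell and none rose (median -0.58), 18.2% against 21% of all genes with a symbol. Iars went from 3.01 and 3.08 to 1.62 and 1.91 (-1.28 ± 0.2, adjusted p = 0.0068), and Vars and Cars fell by 1.4 and 1.3. Of 61 initiation and elongation factors 10 fell and 2 rose, 19.7% against 21%. Eif2b3, a subunit of the exchange factor that starts translation, fell from 0.54 and 0.32 to -1.14 and -0.8 (-1.4 ± 0.22, adjusted p = 0.00656) and Eif4ebp1, an inhibitor of the cap-binding factor, by 1.28. Of 64 splicing factors 6 fell and none rose (median -0.40), 9.38% against 21%. Of 88 cytosolic ribosomal proteins 2 rose and none fell (2.27%), with a median of -0.18. Of 77 mitochondrial ribosomal proteins 11 fell and 4 rose (median -0.41), 19.5% against 21%.

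Cell division genes fell together. Of 48 genes of DNA replication and nucleotide synthesis 31 fell and none rose, 64.6% against 21%, with a median of -1.15; 16 fell without immature 4, 16 without immature 7 and 12 without mature 2. Mcm2, of the replicative helicase, fell from 2.47 and 2.62 to 1.0 and 0.85 (-1.62 ± 0.21, adjusted p = 0.00356), Mcm5 from 2.29 and 2.24 to -0.04 and 0.74 (-1.91 ± 0.34, adjusted p = 0.0103), the primase Prim1 from 0.44 and 0.43 to -1.2 and -1.07 (-1.57 ± 0.23, adjusted p = 0.00497) and Cdc6, which loads the helicase, from 0.03 and 0.4 to -1.94 and -1.88 (-2.12 ± 0.32, adjusted p = 0.00593). Orc1, of the origin complex, fell at least 2.95-fold to below background. Of 50 genes of mitosis and the spindle 25 fell, none rose and none was above 0 (median -1.02); 5 fell without immature 4, 13 without immature 7, 7 without mature 2 and 6 with no filter on dim probes. Kif23, a kinesin of cytokinesis, fell from 3.46 and 3.31 to 1.7 and 2.11 (-1.48 ± 0.24, adjusted p = 0.00732), and the centromere proteins Cenpa and Cenpk from 2.87 and 2.6 to 1.42 and 1.25 (-1.4 ± 0.22, adjusted p = 0.00745) and from 0.08 and -0.07 to -1.4 and -1.19. Of the replication and mitosis genes named here all but Orc1 stayed above background on both mature arrays.

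Mcm5 (plus strand, chr8:75109259-75109508) and Cdc6 (plus strand, chr11:98907901-98908150) are shown for matches to the E2F motif, searched as TTTGGCGC, TTTCCCGC and TTTGGCGG, in capitals.
Mcm5: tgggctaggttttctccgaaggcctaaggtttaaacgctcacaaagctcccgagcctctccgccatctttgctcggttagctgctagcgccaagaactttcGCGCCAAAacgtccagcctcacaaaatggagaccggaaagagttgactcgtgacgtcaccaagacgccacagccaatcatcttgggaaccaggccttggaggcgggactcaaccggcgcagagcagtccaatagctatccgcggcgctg
Cdc6: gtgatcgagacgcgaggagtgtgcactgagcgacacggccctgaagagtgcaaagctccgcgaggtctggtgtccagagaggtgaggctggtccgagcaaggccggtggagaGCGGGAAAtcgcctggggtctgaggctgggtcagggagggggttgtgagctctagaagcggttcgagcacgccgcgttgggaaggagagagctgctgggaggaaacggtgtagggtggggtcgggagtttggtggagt
The matches lie 149 to 142 and 138 to 131 bases before the start, both on the opposite strand. On both strands the motif was present in 9 of 39 promoters of the replication list (23.1%) and 2 of 42 of the mitosis list (4.76%). It was in 4.96% of genes that fell, 2.45% of those that rose, 3.18% of those that did not pass and 1.99% of all promoters.

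Regulators of the cell cycle changed in both directions. Of 37 inhibitors and G1 regulators 7 rose and 11 fell. Gadd45b, a stress-induced growth arrest gene, rose from 1.34 and -0.01 to 5.68 and 5.2 (4.77 ± 0.42, adjusted p = 0.000901), Mxd1, which competes with Myc for its partner, from 1.27 and 1.21 to 4.77 and 5.26 (3.78 ± 0.35, adjusted p = 0.001), and the kinase inhibitor Cdkn1a from 3.61 and 3.17 to 5.71 and 5.93 (2.43 ± 0.23, adjusted p = 0.00113). Mycl, a Myc relative characteristic of dendritic cells, fell from 1.9 and 2.2 to 0.31 and 0.52 (-1.63 ± 0.22, adjusted p = 0.00393), and E2f1, E2f2, E2f7 and E2f8 fell by 1.43, 1.3, 1.15 and 1.48. The cyclin Ccnd2 rose by 2.44, and Ccnd1 did not pass (-0.53 ± 0.27, adjusted p = 0.243).

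Survival and death genes both rose. Of 32 Bcl2 family members, caspases and death receptors 12 rose and 4 fell (median 0.23). Among survival genes, Bcl2l1 (Bcl-xL) rose from 3.83 and 3.47 to 5.84 and 6.22 (2.38 ± 0.25, adjusted p = 0.00165) and Cflar, which blocks caspase 8, from 2.82 and 3.25 to 5.38 and 5.31 (2.31 ± 0.23, adjusted p = 0.00125). Among death genes, the receptor Fas rose at least 21.9-fold (-4.49 and -4.4 on the immature arrays and 1.24 and -0.05 on the mature arrays), and the BH3-only genes Bmf, Pmaip1, Bcl2l11 and Bbc3 rose by 1.91, 1.64, 1.2 and 1.04. The caspases split, Casp4 rising by 2.24 and Casp2 and Casp6 falling by 1.76 and 1.59. Bcl2 itself (-0.03) and Mcl1 (0.18) did not pass.

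**Figure D3:**
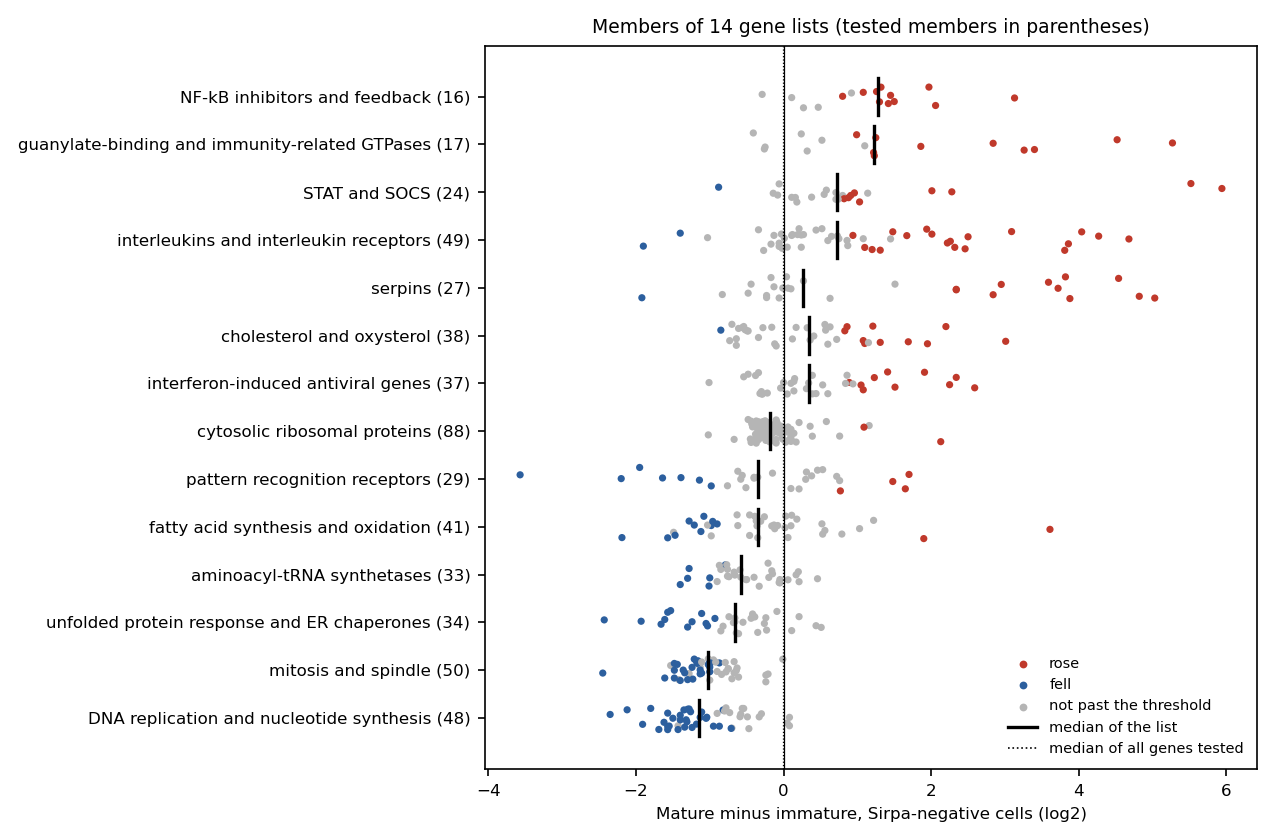
Differences (horizontal axis, log2, mature minus immature) of every tested member of 14 gene lists, 1 point a gene, with a black bar at the list's median and a dotted line at the median of all genes (-0.01). Members of the NF-kB feedback list (median 1.28) and the GTPases (1.22) lie mostly above 0, those of the replication list (-1.15) and the mitosis list (-1.02) below it, and ribosomal proteins (-0.18) close to it.

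Genes known from other tissues were measured too. Aire, the factor that lets thymic epithelium express tissue antigens, was above background on all 4 arrays and rose from -2.28 and -2.64 to -0.09 and 0.89 (2.86 ± 0.36, adjusted p = 0.00293). In the list of Aire, its inducers and known tissue antigens 6 of 16 rose and none fell: Lta, a lymphotoxin, went from -2.05 and -3.3 to 1.2 and 0.7 (3.63 ± 0.4, adjusted p = 0.0019) and Tnfrsf11a (RANK), the receptor that induces Aire in epithelium, from -2.2 and -2.21 to -0.17 and -0.61 (1.82 ± 0.3, adjusted p = 0.008). Tissue antigens themselves, such as Ins2 (-0.07), Tg (0.79) and Mbp (0.75), did not pass. Of 21 hormone and secretory granule genes 6 rose and 1 fell, with Adm (adrenomedullin) rising at least 9.1-fold (adjusted p = 0.000445). Of 32 synaptic genes 5 rose, 15.6% against 21%, among them the glutamate receptor Gria3, from -2.87 and -3.61 to -0.55 and -0.77 (2.58 ± 0.28, adjusted p = 0.00184).

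Protease inhibitors of the serpin family rose in 11 of 27 cases and fell in 1 (median 0.27). Serpinb1a, an inhibitor of neutrophil proteases, went from -0.94 and -1.56 to 3.17 and 3.42 (4.54 ± 0.26, adjusted p = 0.000362) and Serpinb6b from 1.37 and 1.37 to 5.3 and 5.2 (3.88 ± 0.27, adjusted p = 0.000541); Serpinf1 fell from 3.05 and 2.82 to 0.67 and 1.35 (-1.92 ± 0.27, adjusted p = 0.00428). The b-clade genes are close copies, so their probes may share signal. Of 36 metalloproteinases 5 rose and none fell, 13.9% against 21% of all genes with a symbol. Mmp25 rose from 2.61 and 1.73 to 5.87 and 5.43 (3.48 ± 0.36, adjusted p = 0.00143). Apolipoprotein L genes, whose roles are less clear and whose close copies may share signal, included Apol7c, at 2.27 and 0.79 on the immature arrays and 6.35 and 5.83 on the mature arrays (4.56 ± 0.54, adjusted p = 0.00241), and 4 of 9 rose.

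Ion channels and second-messenger genes changed singly. Of 44 calcium and sodium channel genes 5 rose and 5 fell, 22.7% against 21% of all genes with a symbol. The calcium channel subunit Cacnb3 went from 2.06 and 0.51 to 6.02 and 5.91 (4.68 ± 0.47, adjusted p = 0.00128) and its relative Cacnb2 from 2.11 and 1.68 to 0.81 and 0.59 (-1.2 ± 0.22, adjusted p = 0.0127). Adora2a, the adenosine receptor that raises cyclic AMP, rose from -0.49 and -1.77 to 4.21 and 3.33 (4.9 ± 0.47, adjusted p = 0.00111) and Adcy6, which makes cyclic AMP, from 0.31 and -1.0 to 3.98 and 3.85 (4.26 ± 0.41, adjusted p = 0.00113), while the regulatory kinase subunits Prkar2a and Prkar2b fell by 1.22 and 1.96. Of 58 protein kinase C, calcium and MAP kinases 7 rose and 10 fell, 29.3% against 21%. Map2k6, an activator of p38, fell from 1.06 and 0.94 to -1.91 and -1.37 (-2.64 ± 0.23, adjusted p = 0.000912). Of 252 solute carriers 24 rose and 35 fell, 23.4% against 21%. Slc25a29, a mitochondrial carrier of basic amino acids, rose at least 14.3-fold, and the folate carrier Slc19a1 fell from 0.37 and 0.32 to -1.28 and -1.03 (-1.5 ± 0.19, adjusted p = 0.00313).

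Large families were counted in the same way. Of 287 zinc finger genes of the Zfp and Zscan type 40 rose and 6 fell (median 0.25, 197 above 0), and Zfp296 rose by 2.21. The share that passed was 16%, against 21% of all genes with a symbol. Of 171 olfactory and vomeronasal receptors 12 rose and 1 fell (7.6% against 21%). Of 3497 intergenic lincRNA probes 194 rose and 133 fell (9.35% against 16.5% of all genes tested), or 153 and 155 with median scaling.

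Some genes crossed the detection limit. Counting genes above background on both arrays of one state and, with all their probes, on neither array of the other, 373 were detected in mature cells alone (226 with a symbol) and 161 in immature cells alone (76 with a symbol). Of these 277 also rose and 78 also fell. Under the software's weaker criterion for a spot that is positive and significant, the counts were 80 and 11, and with 1 of the 4 arrays left out the total of 534 became 823 to 2031. Beyond Insm1, Stat4, Thbs4 and Flrt3, the largest lower bounds in mature cells belonged to Nipal1, a magnesium transporter, with at least 28.1-fold (-3.81 and -4.63 on the immature arrays and 0.94 and 0.92 on the mature arrays), and Scube3, a secreted growth factor cofactor, with at least 25.2-fold (-3.96 and -4.39 on the immature arrays and 1.07 and 0.56 on the mature arrays). In immature cells alone the bound was at least 9.36-fold for Lmo1 and at least 4.35-fold for Fam117a. Adam26b (1.62 and -4.0 on the immature arrays and -6.09 and -5.55 on the mature arrays, adjusted p = 0.0851) and Itga8 (-1.98 and -1.85 on the immature arrays and -6.21 and -4.62 on the mature arrays, adjusted p = 0.107) were detected in immature cells alone but did not pass the test.

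Sirpa-positive cells, which share no arrays with these, provide the comparison. Both comparisons used the same estimate of each gene's spread, from all 8 arrays, so their calls are not independent. There 1662 of 24145 genes passed (6.88%). In both subsets 1282 genes passed, which is 32.3% of the Sirpa-negative and 77.1% of the Sirpa-positive calls, and 1276 of them changed in the same direction. Of the genes that rose in Sirpa-negative cells 874 rose, 6 fell and 1346 did not pass in Sirpa-positive cells; of those that fell, 402 fell, none rose and 1347 did not pass. A gene that passed in 1 subset alone is not thereby different between them. The test of the difference itself passed for 0 genes (0%) in limma, with a smallest adjusted p of 0.0688 and 1945 genes at an unadjusted p under 0.05. Other settings gave 0 to 186 genes, so the differences that follow are side-by-side values, none past the threshold.

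Axl changed by 4.9 against -0.3 (Sirpa-negative against Sirpa-positive, adjusted p of the difference = 0.0688), Cd63 by 5.61 against 0.44 (0.0838), Il21r by 4.68 against 0.72 (0.0688), Lgmn by 3.29 against 0.08 (0.0688), Lamp1 by 2.99 against 0.39 (0.0929) and Ifit1 by 2.59 against -0.21 (0.0688). These were chosen after their values were seen, from the 143 genes whose difference had an adjusted p under 0.1, of which 118 were more positive in Sirpa-negative cells. The 6 genes that passed in opposite directions were Adamdec1, C2, Hpgds, Il1rl2, Kcne3 and Maf, all of which rose in Sirpa-negative and fell in Sirpa-positive cells. Adamdec1 and Maf were above background on neither immature and on 1 of 2 mature Sirpa-negative arrays, so they were kept through Sirpa-positive arrays only. Their lowest Sirpa-negative differences among the alternatives were 0.12 and 0.2. Kcne3, a potassium channel subunit above background on 1 of 2 immature Sirpa-negative arrays, changed by 1.46 against -2.82 (0.0688) and Hpgds, a prostaglandin D synthase, by 1.06 against -1.04 (0.0714).

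The same lists, side by side, had the following medians and counts. Over all genes tested 16.5% passed in Sirpa-negative and 6.88% in Sirpa-positive cells, so the counts per list do not compare the subsets directly. The NF-kB feedback list had a median of 1.28 in Sirpa-negative and 0.44 in Sirpa-positive cells, with 11 and 1 of 16 rising, and the antiviral list 0.34 and -0.16, with 10 and 0 of 37 rising. The chaperone list had -0.66 and -0.26, with 12 and 0 of 34 falling. Mitosis genes had medians of -1.02 and -1.10 and 25 and 23 of 50 falling, and the replication list had -1.15 and -0.80, with 31 and 11 of 48 falling. Type 1 dendritic cell markers had -1.11 and -0.15. The difference between subsets was tested for single genes only.

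**Figure D4:**
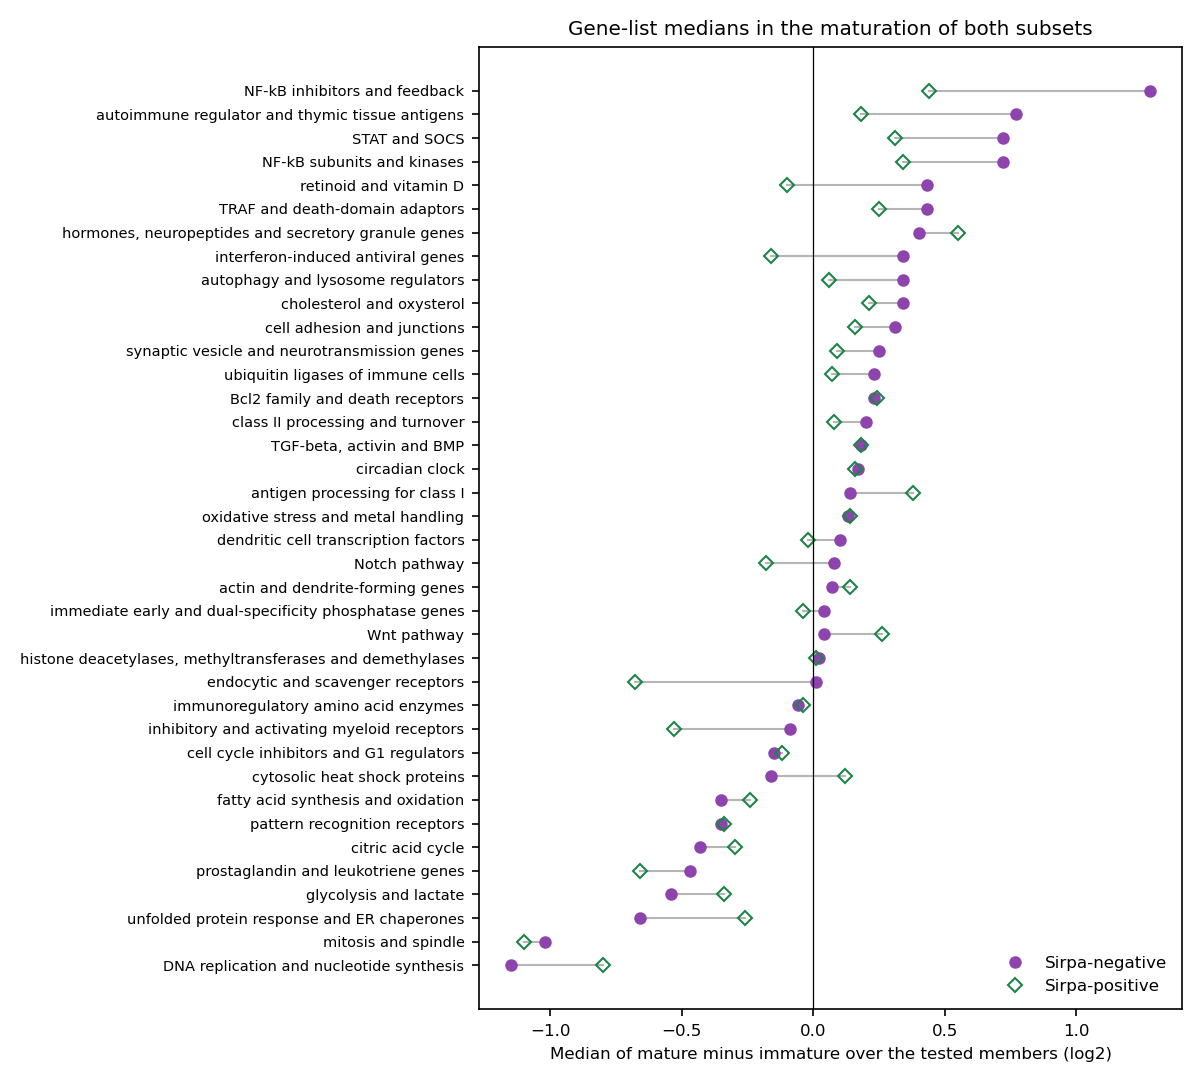
Median difference (horizontal axis, log2, mature minus immature) over the tested members of each gene list in Sirpa-negative cells (purple circles) and Sirpa-positive cells (open green diamonds), ordered by the Sirpa-negative median. The NF-kB feedback list stands at 1.28 and 0.44, the antiviral list at 0.34 and -0.16, and the mitosis list at -1.02 and -1.10.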

How the data were processed

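Each deposited scanner file held spot intensities, already processed by the authors' scanner software: Agilent Feature Extraction 10.7.3.1 per the file headers, 10.5 per the submitters' processing notes, which also name limma. The deposited series table held log2 values, judging by the values themselves, with nearly equal distributions (largest gap between sorted columns 0.126). It served as an alternative.

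The processed intensity of each of 59305 non-control spots was log2-transformed and the array's 75th percentile subtracted. Outlier-flagged spots, 110 to 270 on an array, were dropped, and the rest averaged by probe. Kept probes had signals well above background in every array of 1 or more of the 4 groups, which left 33686 of 55681 probes. The kept probe with the highest mean stood for its gene. Of all probes 26582 were named through RefSeq accessions. limma 3.58.1 in R 4.3.3 fitted all 8 arrays (4 residual and 3.26 prior degrees of freedom), with two-sided tests. A lower bound of a fold compares the brighter group's mean with the higher of the array's lowest signal well above background and the probe's own signal. In the fit with normexp background correction (offset 50), the median signal replaced the mean signal, which the files used here lack.

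Samples were grouped by their titles. The genes and lists were chosen with earlier results of these data known. Named genes were ranks 9 to 20 of the rises and falls, per list up to 3 risen and 3 fallen members by smallest p plus others from lists counted whole, the 6 largest bounds of genes detected in 1 state, and a few markers. Of 1504 list entries 24 were not matched on the array. Alternatives covered background correction, scaling, the filter, the choice of probe, blocks, variances, thresholds and leaving out each array. Some genes are not reported here. The number of arrays limits the precision.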

Additional observations from a re-analysis of the deposited data

How the results depend on the processing

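Of 353 genes named in the text 300 passed, and 204 of these passed under each of up to 19 alternatives tried for them. All but Cd6 kept their direction in every one. Averaging the kept probes of a gene turned 2 values, Cd6 to 0.03 and Marchf1 to -0.84, a fall that passed. The count of genes that passed, 3975, stayed within 1.5 times under the other background corrections, scalings, probe rules, blocks and variances tried (2947 to 4829), and was 5363 of 33686 when each kept probe was tested singly. It was 1615 with no filter on dim probes, 2043 in a fit of the 4 Sirpa-negative arrays alone, 1456 at an adjusted p under 0.01, and 1790 to 3033 when 1 Sirpa-negative array was left out. With 1 array left in a group, that array is assumed to vary like the other groups. Without mature array 2, 41.5% of the genes passed again, and without mature array 8, 66.2%. The test of the difference between subsets passed for 0 genes, but for 178 with normexp and quantile normalization, 169 with normexp and the 75th percentile, 148 in the authors' deposited values, 186 with trended and robust variances, 101 and 20 with filters for all 8 arrays or a Sirpa-negative group, 4 with averaged probes, 2 with the title-number set as a block, 1 with median scaling, 0 to 1 when 1 array was left out and 143 at an adjusted p under 0.1. The 534 genes detected in 1 state were 91 under the weaker detection criterion, 355 where the limma test was also required, and 823 to 2031 with 1 array left out, which was added after seeing the data, as was the choice of the probe brightest on the 4 Sirpa-negative arrays (3955). The causes were not tested. Median scaling moved the median of all genes to -0.12; changes are relative to that shift.

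No paired analysis was possible because the compared groups share no title number (2 and 8 against 4 and 7). As a stand-in, slide row as a block gave 2947 calls and the title-number set as a block 4631. With 2 arrays a group, small changes and genes near background could not be resolved.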
